A study of Homo sapiens with 24 samples.

Results

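T98G is an established human glioblastoma cell line, and its 3 control (“Vec”) libraries, out of 24 CAGE-Seq libraries in the series, were compared with the 9 “Vec” libraries of U87MG, U251MG, and DBTRG-05MG, each line weighted equally. CAGE-Seq counts tags from the 5′ ends of capped RNA, here summed per gene. The control cells of all 4 lines carried the Puro-Blank lentivirus and had been selected with puromycin, so these are shared by the groups. The other 12 libraries came from the same lines transduced to overexpress WWOX from a CMV promoter (“WWOX”). They served to repeat the comparison and to test whether the T98G difference changed between variants. They also entered an alternative fit of all 24 libraries. T98G was grown in MEM with non-essential amino acids, U87MG and U251MG in EMEM with non-essential amino acids and sodium pyruvate, and DBTRG-05MG in RPMI 1640 with sodium pyruvate, so for T98G the line and its medium cannot be told apart. The labels and the methods speak of clone selection with puromycin, and how many clones each variant came from is not given in the sources used here. The methods describe the 3 libraries of a variant as biological triplicates. The p-values therefore measure the spread between such libraries within lines, pooled over the 4 lines, and not the spread between lines. T98G had the widest such spread, with a median SD of 0.363 on the log2 scale against 0.257 to 0.269 in the other lines. With the line as the unit, an exact test of 1 line against 3 cannot give p below 0.25.

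Glioblastoma lines differ in lasting traits that bear on their use as models. One is MGMT, the enzyme that removes methyl groups from guanine and protects cells from the drug temozolomide. Others are the cell cycle inhibitors of the 9p21 locus, which are often deleted in these tumors, the antioxidant program of the transcription factor NRF2, and the balance of glial and mesenchymal genes.

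The 12 control libraries held 12333788 to 15960454 tags on genes. A count of 0 allows up to 3 tags, which is 0.188 to 0.243 CPM in these libraries, and such limits and all counting intervals cover counting error only. T98G replicate 2 stood apart: its median absolute distance from the mean of the other T98G libraries was 0.526 on the log2 scale, against 0.215 to 0.417 for the other 11 libraries within their lines. Markers of leukocytes and microglia summed to 4.51 to 6.3 CPM over 13 genes in T98G. PTPRC, AIF1, and TYROBP had 0 tags there, as did CDH5 of endothelium and CDH1, KRT5, and KRT14 of epithelium. The 12 endothelial markers still summed to 26.7 to 45.9 CPM in T98G. They summed to 3.55 to 5.54 in U87MG, 10.4 to 17.1 in DBTRG-05MG, and 34.8 to 52.9 in U251MG. For the 13 epithelial markers the sum was 216 to 369 CPM in T98G, with KRT18 alone at 209 to 362 CPM. It was 2.01 to 4.83 in U87MG, 39.9 to 89.1 in U251MG, and 953 to 1329 in DBTRG-05MG. The sum over the 26 glial and neural progenitor markers was lowest in T98G, at 444 to 549 CPM, and overlapped the 503 to 680.3 CPM of U87MG. It was 1368 to 2775 in DBTRG-05MG and 3680.0 to 5956 in U251MG. Single genes weighed heavily in this sum. CLU had a mean of 381 CPM in T98G, 435 in U87MG, and 1738.5 in DBTRG-05MG, and GFAP had 2655 in U251MG. In bulk libraries, fewer cells of a kind and less RNA per cell cannot be told apart.

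Among 11474 autosomal genes with 5 CPM or more in at least 1 control library, 2422 were higher in T98G than the mean of the other lines (21.1%) and 2532 were lower (22.1%; limma, adjusted p under 0.05). This balance turned with the method, with 2055 higher and 2768 lower on CPM as deposited, 2622 and 1905 with edgeR, and 2751 and 2325 with DESeq2. A gene called against the mean can still be matched by 1 line, so identity genes were defined more strictly. They passed the threshold against the mean and against each line, their 3 T98G libraries did not overlap the 9 others, and they lay at least 1 on the log2 scale from the nearest line. This gave 491 T98G-high genes (4.28%) and 357 T98G-low genes (3.11%). The same rule gave 569 and 674 genes for U87MG, 276 and 262 for U251MG, and 599 and 274 for DBTRG-05MG. Without T98G replicate 2 there were 657 T98G-high and 463 T98G-low genes. T98G differed from U251MG in 3974 genes (34.6%), from U87MG in 4955 (43.2%), and from DBTRG-05MG in 5058 (44.1%). At the limit of 1, YDJC (1.003) was just inside and ETS1 (0.991) just outside among high genes, and THUMPD2 (-1.007) and FIG4 (-0.9999) were so among low genes. Below, levels are CPM as deposited, and differences are log2 values of scaled CPM + 0.5, given either from the mean of the other lines or from the nearest line.

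MGMT (ENSG00000170430, chromosome 10, 129467190 to 129770983, hg38) was measured at 101, 90.6, and 149 CPM in the T98G libraries and at no more than 1.99 CPM in the 9 others. U251MG came nearest at 1.43 ± 0.732 CPM (SD, n = 3), and U87MG had at most 0.142 CPM. MGMT was 6.07 above U251MG, 88.5-fold from the tags (95% counting interval 67.9 to 118), with a largest adjusted p of 7.37e-09 over the 4 contrasts (limma). The other alkylation repair genes differed far less. Of 14 alkylation repair genes tested, 4 (28.6%) were higher and 1 (7.14%) lower in T98G (median 0.08), against 21.1%, 22.1%, and a median of -0.02 over all genes tested, the background for each list below. MPG, POLB, and APEX1, which act in base excision repair, were higher by 0.99, 0.89, and 0.65, and MSH3, a mismatch repair gene, was lower (-0.65). MGMT is known to be silenced in many glioblastomas by methylation of CpG near its start, so the 250 bases before its RefSeq start are shown (GRCh38.p14, chr10:129466991-129467240, plus strand), with the 36 CpG in capitals. Methylation was not measured for this or any window below. The median number of CpG was 20 over windows of genes tested and 19 over those of T98G-high genes.

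MGMT: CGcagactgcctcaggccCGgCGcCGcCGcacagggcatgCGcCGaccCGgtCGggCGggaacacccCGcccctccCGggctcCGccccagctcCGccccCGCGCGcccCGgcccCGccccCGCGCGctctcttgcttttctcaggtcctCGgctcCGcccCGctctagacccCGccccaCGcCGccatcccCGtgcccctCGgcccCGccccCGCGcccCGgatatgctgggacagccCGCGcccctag

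CDKN2B (chromosome 9, 22002903 to 22009305), which encodes the CDK4/6 inhibitor p15, was detected in T98G alone. It had 15.7, 33.5, and 10.7 CPM in T98G and 0 tags in the 9 other libraries, at least 276-fold higher than in U87MG with 3 tags over its 3 libraries as the limit (largest adjusted p = 9.37e-09, limma). CDKN2A, its neighbor, stayed under 5 CPM in every library and was not tested, but its levels were 1.48, 1.00, and 0.778 CPM in T98G and at most 0.0811 CPM elsewhere. CDKN2B-AS1, the antisense RNA of the locus, had 1.48, 1.00, and 0.623 CPM in T98G. It overlaps CDKN2B and CDKN2A on the opposite strand, and the strand setting of the counting is not given in the sources used here, so their tags may not be fully separated. MTAP, the next gene of the locus, had another order, at 0.325 ± 0.0993 CPM in T98G, 1.18 ± 0.176 in U251MG, 1.27 ± 0.595 in DBTRG-05MG, and 0 tags in U87MG (SD, n = 3). CDKN2B-AS1 and MTAP were chosen after their values were seen. The window before the start of CDKN2B (chr9:22009306-22009555, minus strand) is shown because the gene separated T98G so fully, with its 18 CpG in capitals.

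CDKN2B: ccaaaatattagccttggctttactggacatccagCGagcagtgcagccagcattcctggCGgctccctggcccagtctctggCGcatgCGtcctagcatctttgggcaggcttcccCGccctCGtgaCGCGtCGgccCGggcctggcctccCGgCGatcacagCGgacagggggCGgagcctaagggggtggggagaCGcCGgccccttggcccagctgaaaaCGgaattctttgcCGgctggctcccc

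Other genes of growth control gave smaller differences. Of 23 genes of the 9p21, RB, and p53 list tested, 6 (26.1%) were higher and 4 (17.4%) lower in T98G (median 0.18), shares near those over all genes. CDKN1C, which encodes the CDK inhibitor p57, had 13.6, 5.01, and 10.8 CPM in T98G against at most 1.19 CPM, 2.73 above U251MG (largest adjusted p = 5.2e-05, limma). CDKN1A, which encodes p21 and was chosen after its values were seen, was lower than the mean (-2.11, adjusted p = 4.81e-07, limma), but its 84.3 ± 7.84 CPM lay near the 106 ± 10.6 CPM of U251MG (SD, n = 3), a difference that did not pass (-0.18, adjusted p = 0.562, limma). EGFR was at 139.7 ± 47.2 CPM in T98G and 72.1 to 138 CPM elsewhere, and its difference (0.43, adjusted p = 0.0455, limma) fell to 0.25 and lost the threshold without T98G replicate 2. It was also lost with any 1 of 8 other control libraries left out.

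The T98G-high gene farthest from its nearest line was SLPI, a secreted inhibitor of leukocyte proteases. It had 314, 358, and 346 CPM in T98G against at most 1.3 CPM elsewhere, 8.34 above U251MG. TNFRSF11B (osteoprotegerin, a decoy receptor for RANKL) had 127 to 178 CPM against at most 0.631 CPM. Among the 20 leading genes were also DEFB1, an antimicrobial peptide (57.1 to 119 CPM against at most 0.856), and NPTX1, a pentraxin of synapses (139, 36.4, and 144 CPM against at most 0.405). The low value of NPTX1 was that of replicate 2, which lay above the 9 other libraries, as the rule requires.

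ACVRL1, a receptor of BMP9 and BMP10, had 43.3, 9.9, and 43 CPM against at most 0.243 CPM, and HTR2B, a serotonin receptor, had 15.5 to 25.2 CPM against at most 0.067 CPM. HTR2B lies on the opposite strand of PSMD1, so its tags may not be fully separated. ITGA8, an integrin chain, had 16.1 to 36.4 CPM against at most 0.132 CPM. HSD17B2, which inactivates estradiol, had 97 to 155 CPM against at most 0.329, and PLIN2, which coats lipid droplets, had 57 to 65.4 CPM against at most 0.324. HSD17B2 overlaps HSD17B2-AS1 on the opposite strand. GMFG, SUSD2, SCUBE1, TMEM52B, and the long noncoding RNA LINC00942 were also among the 20, and in none of them did T98G overlap the other lines, as the rule requires.

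HSPA1A, an inducible heat shock protein, passed the rule but is uncertain. Its levels were 86.3, 285, and 118 CPM in T98G and at most 3.05 CPM elsewhere, whereas its near-identical copy HSPA1B was not called (0.84, adjusted p = 0.456, limma). Summed, the pair reached 134 to 407 CPM in T98G, 14.9 to 347 in U87MG, 26.3 to 398 in U251MG, and 13.3 to 22.5 in DBTRG-05MG, so T98G overlapped U87MG and U251MG.

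**Figure D1:**
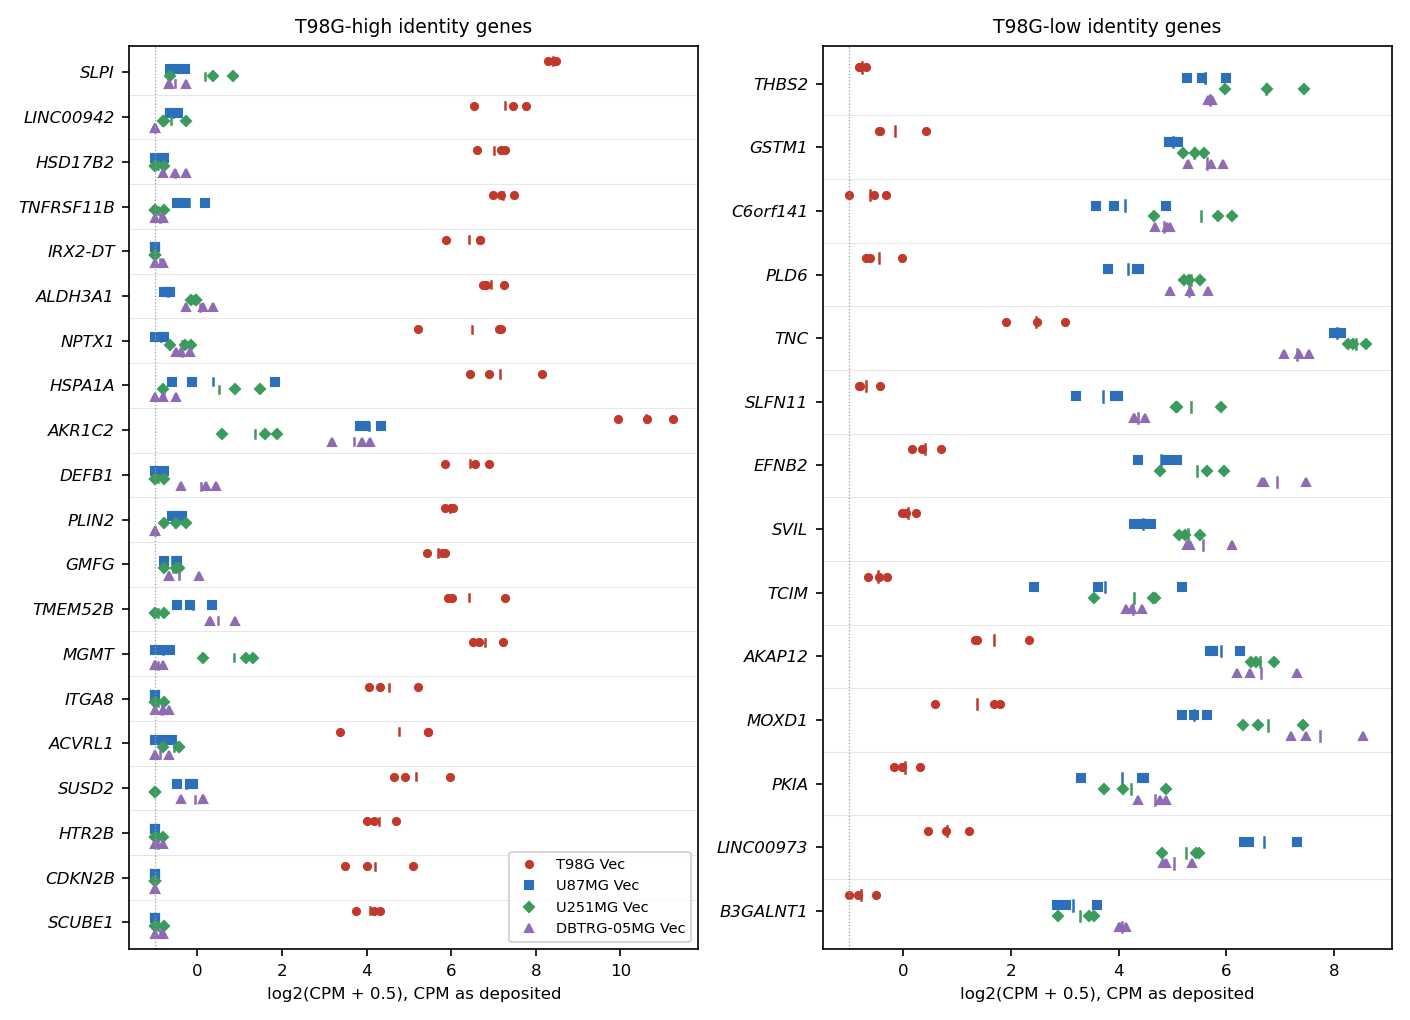
Levels of the 20 leading T98G-high identity genes and 14 of the 15 leading T98G-low identity genes in the 12 control libraries, as log2(CPM + 0.5), with 1 point per library and a bar for the mean of the 3 libraries of a line. The T98G points lie to the right of all others for the high genes and to the left of all others for the low genes.

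Among the gene lists, xenobiotic handling and NRF2 targets had the highest median. NRF2 is held low by KEAP1 and, when released, raises genes of glutathione synthesis, quinone reduction, and aldo-keto reduction. Of 39 genes of this list tested, 27 (69.2%) were higher and 5 (12.8%) lower in T98G (median 1.73), and 14 were T98G-high identity genes: ALDH3A1, AKR1C2, CES1, AKR1C1, GCLC, NQO1, SRXN1, TALDO1, EPHX1, ABCC1, OSGIN1, AKR1C3, TXNRD1, and GCLM. AKR1C2, a reductase of steroids and carbonyls, had 983, 2412, and 1584 CPM in T98G against at most 19.7 CPM, 6.52 above U87MG. ALDH3A1, an aldehyde dehydrogenase, had 107, 153, and 112 CPM against at most 0.79 CPM. AKR1C1, AKR1C2, and AKR1C3 are close copies side by side, so tags could be split among them, but their sum was 1685 to 3091 CPM in T98G and at most 179 CPM elsewhere.

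Several well-known NRF2 targets, chosen after their values were seen, belonged to the 14. NQO1, a quinone reductase, had 2344, 2844, and 2925 CPM in T98G, 549.5 to 710.4 in U251MG, 210.3 to 260.5 in U87MG, and 128 to 171 in DBTRG-05MG (largest adjusted p = 3.44e-06, limma). GCLC and GCLM, the catalytic and modifier subunits of the enzyme that limits glutathione synthesis, were 2.55 above U87MG and 1.45 above U251MG. SRXN1, which repairs oxidized peroxiredoxins, was 2.18 above U251MG, and TXNRD1, a thioredoxin reductase, was 1.48 above U251MG. NFE2L2, which encodes NRF2, had 16.4, 28.1, and 13.7 CPM against at most 14.6 CPM and was higher than the mean (1.78, adjusted p = 3.88e-05, limma), but at 0.99 from DBTRG-05MG it missed the identity rule. KEAP1 was not called (0.31, adjusted p = 0.176, limma). HMOX1, a heme oxygenase that NRF2 also controls, was not called either (-0.30).

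GSTM1, a glutathione transferase, went the other way. It had 0.844, 0.251, and 0.234 CPM in T98G and 30.1 to 60.5 CPM in the others. It overlaps and resembles GSTM2, which was not called (-0.48), and GSTM1, GSTM2, and GSTM4 summed to 39.1 to 48.3 CPM in T98G and to at least 85.6 CPM elsewhere.

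The letters TGACNNNGC, the core of the antioxidant response element, were searched on both strands of the 250 bases before RefSeq starts. They were found in 4 of 15 windows (26.7%) of the 11 T98G-high genes of this list that matched RefSeq. These were windows of GCLM and EPHX1 and the 2 windows of TXNRD1. The share was 11.9% of windows of genes tested and 10.9% of all autosomal windows. It was not taken among the other members of the list, so it cannot set the T98G-high members apart from them. Over all T98G-high genes the share was 11%. The windows of GCLM (chr1:93909431-93909680, minus strand) and TXNRD1 (chr12:104215529-104215778, plus strand) are shown as members that were T98G-high and held a match, in capitals, 34 and 99 bases before the start. In GCLM it lies on the reverse strand. A match is a description and not a binding site.

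GCLM: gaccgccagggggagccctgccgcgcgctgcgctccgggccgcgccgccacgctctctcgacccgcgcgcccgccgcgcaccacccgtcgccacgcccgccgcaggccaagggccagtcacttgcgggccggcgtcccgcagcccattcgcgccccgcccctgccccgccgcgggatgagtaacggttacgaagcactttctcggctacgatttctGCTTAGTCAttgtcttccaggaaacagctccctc
TXNRD1: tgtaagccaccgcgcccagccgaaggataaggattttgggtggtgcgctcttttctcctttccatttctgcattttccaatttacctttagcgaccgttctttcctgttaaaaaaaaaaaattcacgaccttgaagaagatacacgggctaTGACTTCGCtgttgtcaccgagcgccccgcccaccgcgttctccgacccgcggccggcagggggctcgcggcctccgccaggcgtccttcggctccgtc

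**Figure D2:**
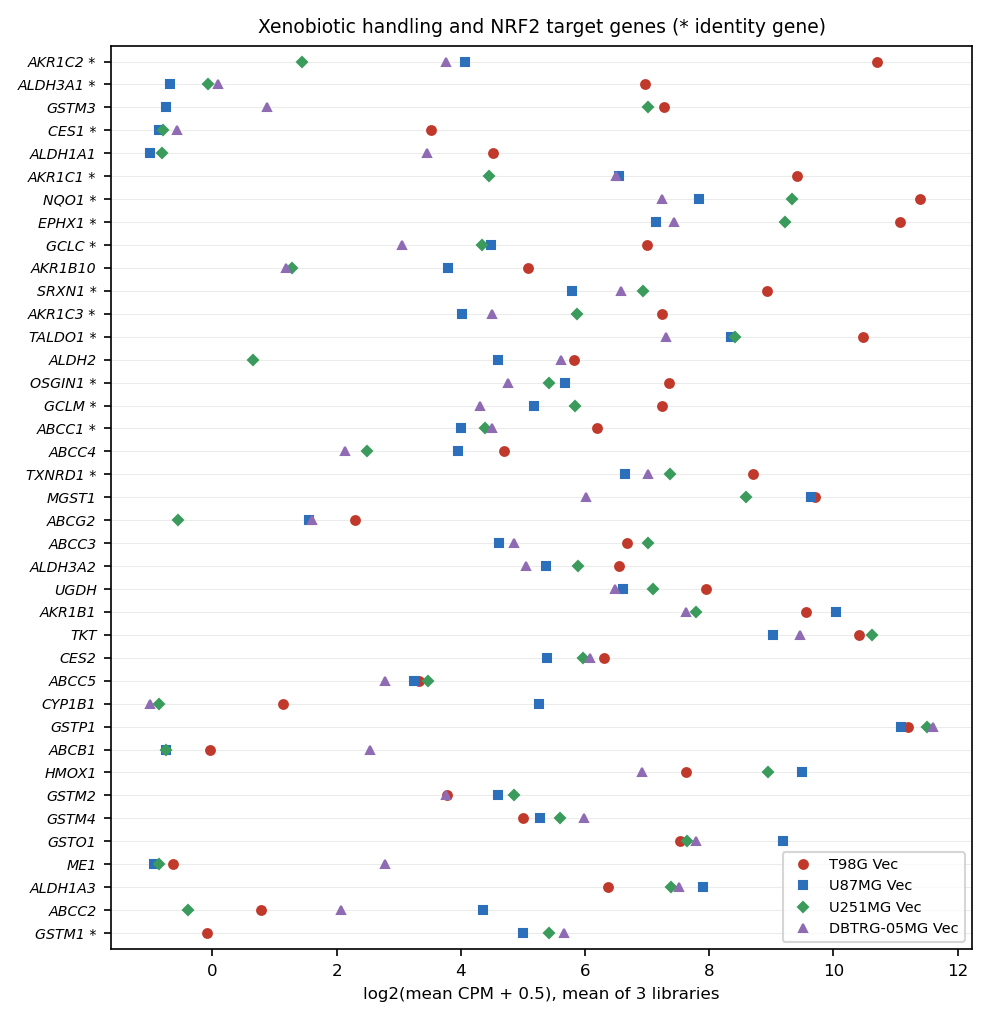
Mean levels of the 39 genes tested on the xenobiotic and NRF2 list in the control libraries of each line (n = 3), as log2(CPM + 0.5). T98G has the highest level for the 14 T98G-high identity genes and the lowest for GSTM1.

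Developmental transcription factors were another list with many T98G-high genes. Of 58 such factors tested, 30 (51.7%) were higher and 11 (19%) lower in T98G (median 0.94), and 14 were T98G-high identity genes, among them FOXF1, IRX2, LHX8, TBX1, FOXF2, ALX4, FOXL2, PITX1, ZIC2, MSX2, FOXQ1, TFAP2A, and PAX3. FOXF1, a regulator of lung and gut mesenchyme, had 218, 155, and 206 CPM in T98G, 5.86 to 15.5 in DBTRG-05MG, 1.83 to 3.49 in U251MG, and at most 0.155 in U87MG. FENDRR, a long noncoding RNA that starts beside FOXF1, had 144, 80.9, and 114 CPM in T98G against at most 6.22 CPM, and LINC01081 had 42.1, 14.1, and 32.1 CPM against at most 3.8 CPM. The 3 were consecutive among the genes tested on chromosome 16 (86221420 to 86515422, hg38), and FENDRR and LINC01081 were chosen after their values were seen.

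IRX2 and its divergent transcript IRX2-DT, on chromosome 5, formed a pair of the same kind. IRX2, an Iroquois homeobox factor, had 6.26, 9.52, and 6.54 CPM in T98G and 0 tags in the 9 other libraries, at least 100.3-fold higher than in U87MG. IRX2-DT had 102, 58.4, and 102 CPM in T98G against at most 0.0655 CPM. The window before the start of IRX2 (chr5:2751678-2751927, minus strand), a gene without a tag in the other lines, has 27 CpG in capitals.

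IRX2: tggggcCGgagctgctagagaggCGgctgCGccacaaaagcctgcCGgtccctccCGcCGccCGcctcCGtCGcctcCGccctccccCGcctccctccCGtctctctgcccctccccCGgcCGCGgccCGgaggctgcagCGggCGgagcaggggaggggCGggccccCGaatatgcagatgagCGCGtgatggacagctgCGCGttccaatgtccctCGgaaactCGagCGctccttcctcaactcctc

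LHX8, a factor of forebrain cholinergic neurons, had 5.76 to 9.15 CPM against at most 0.21 CPM, and TBX1, a factor of pharyngeal development, had 8.27 to 11.4 CPM against at most 0.982 CPM. HOX genes leaned the other way. Of 19 HOX genes tested, 4 (21.1%) were higher and 9 (47.4%) lower in T98G (median -0.56). HOXB7, HOXD9, and HOXB3 were T98G-low, with 0.251 to 1.12, 0 to 0.0703, and 0.501 to 1.05 CPM in T98G against at least 1.78, 1.75, and 1.85 CPM, while HOXC13 was T98G-high (1.04 above U251MG), a status lost without T98G replicate 3 or U251MG replicate 3, with a pseudocount of 1, and on CPM as deposited. HOXB genes overlap on both strands, so tags may be shared. Of 9 SOX genes tested, 3 were higher and 4 lower. SOX11 was T98G-high (22.7 to 31.4 CPM against at most 16.8), a status lost without T98G replicate 1 or U251MG replicate 1. SOX2, a factor of neural stem cells chosen after its values were seen, was low in T98G (0.36 ± 0.252 CPM) and U87MG (0.0707 ± 0.071) and high in U251MG (98.1 ± 64.9) and DBTRG-05MG (47 ± 4.72; SD, n = 3).

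Glial and neural progenitor markers were mostly lower in T98G than the mean of the other lines, but much of this was shared with U87MG. Of 18 such markers tested, 1 (5.56%) was higher and 15 (83.3%) lower in T98G (median -1.56), and the other 8 of 26 stayed under 5 CPM. Of the 15 lower markers, 8 had a still lower mean CPM in U87MG, and 2 were T98G-low identity genes, NES and VIM. NES, an intermediate filament of neural progenitors, had 0.352, 0.125, and 0.0778 CPM in T98G, 1.14 to 2.55 in U87MG, 19.5 to 60.5 in DBTRG-05MG, and 57 to 129 in U251MG. VIM, a filament of mesenchymal and glial cells, had 14.6 to 15.4 CPM against 38.2 to 68.2 CPM, -1.57 relative to DBTRG-05MG (largest adjusted p = 7.61e-05, limma). VIM overlaps VIM-AS1 on the opposite strand, so its tags may not be fully separated. GFAP, the astrocyte filament, was at 1.99 ± 0.359 CPM in T98G, 4.34 ± 1.95 in U87MG, 2.01 ± 1.84 in DBTRG-05MG, and 2655 ± 558 in U251MG (SD, n = 3). Its difference from the mean (-3.50, adjusted p = 3.05e-06, limma) was -0.27 and not called without U251MG. Of 8 neuronal markers tested, 4 (50%) were lower in T98G and 4 were not called (median -1.01), and GAP43, a growth cone protein, was T98G-low at 0.156 to 1.5 CPM against at least 8.27 CPM.

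Mesenchymal glioblastoma markers were split. Of 30 such markers tested, 11 (36.7%) were higher and 8 (26.7%) lower in T98G (median 0.11). S100A4, a calcium-binding protein of motile cells, had 282, 115, and 261 CPM in T98G against at most 48.2 CPM, and ZEB1, a repressor of epithelial genes, was 1.13 above U251MG, an identity status lost without T98G replicate 2 or on CPM as deposited. TNC (tenascin C, a matrix glycoprotein) was T98G-low at 5.13, 7.58, and 3.27 CPM against 133 to 384 CPM. Its largest adjusted p was 4.04e-09 (limma).

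The T98G-low gene farthest from its nearest line was THBS2 (thrombospondin 2, an inhibitor of angiogenesis), with 0.0703, 0.125, and 0.0778 CPM in T98G against 37.9 to 173 CPM, -6.32 relative to DBTRG-05MG. Among the 15 leading T98G-low genes, SVIL, which links actin to the membrane, had 0.492 to 0.689 CPM against at least 19 CPM. AKAP12, which anchors protein kinase A, and PKIA, which inhibits it, were -4.27 relative to U87MG and -4.08 relative to U251MG. EFNB2, an ephrin ligand, had 0.633 to 1.13 CPM in T98G. The 9 other libraries had a median of 49.2 and a highest value of 177 CPM and, as the rule requires, did not overlap T98G.

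SLFN11, known to make cells sensitive to DNA-damaging drugs, had 0.0703, 0.251, and 0.0778 CPM in T98G, 8.73 to 15.4 in U87MG, 19 to 21.9 in DBTRG-05MG, and 32.9 to 59.1 in U251MG (largest adjusted p = 2e-08, limma). The T98G values lay at or near the limit that a count of 0 allows. C6orf141, PLD6, MOXD1, TCIM, LINC00973, and B3GALNT1 were also among the 15, as were TNC and GSTM1.

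Matrix and adhesion genes changed in both directions. Of 23 collagen genes tested, 9 (39.1%) were higher and 6 (26.1%) lower in T98G (median -0.05). COL6A3, a chain of collagen VI, had 757, 1299, and 552 CPM in T98G, 221 to 385 in U87MG, and at most 1.19 and 0.322 in U251MG and DBTRG-05MG. COL27A1 was 1.38 above U251MG and COL9A2 -1.15 relative to U87MG, and COL9A2 was no identity gene without T98G replicate 2 or with a pseudocount of 1. COL12A1 had 30.5, 158, and 21.9 CPM in T98G, and without T98G replicate 2 or U251MG replicate 3 it was no identity gene. Of 24 integrin and laminin chains tested, 6 (25%) were higher and 13 (54.2%) lower in T98G (median -0.90). ITGA11, a collagen receptor chain, was 2.80 above U251MG, and LAMB1, a laminin chain, was 2.29 above DBTRG-05MG, while ITGA7, a laminin receptor chain, was -2.31 relative to U251MG.

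Of 18 matrix protease and plasminogen activation genes tested, 3 (16.7%) were higher and 9 (50%) lower in T98G (median -0.77). TIMP3, a matrix-bound inhibitor of metalloproteases, had 967, 954, and 779 CPM in T98G, 95.9 to 138 in DBTRG-05MG, 19.3 to 42.3 in U251MG, and 3.3 to 5.72 in U87MG. TIMP3 overlaps SYN3 on the opposite strand. Of 13 cadherins and protocadherins tested, 4 (30.8%) were higher and 6 (46.2%) lower in T98G (median -0.54). PCDH18 was 4.2 above U87MG and PCDH9 was -2.29 relative to U251MG, both protocadherins of cell adhesion.

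Of the MHC class I and interferon-stimulated genes, the called members were all higher. Of 35 such genes tested, 12 (34.3%) were higher in T98G and 23 were not called (median 0.69), and 7 were T98G-high identity genes: BST2, IFITM2, IRF7, PSMB9, IFITM3, PSMB8, and PSMB10. BST2 (tetherin, which holds virus particles at the cell surface) had 521, 357, and 787 CPM in T98G, 7.24 to 108 in U251MG, 2.83 to 33.8 in DBTRG-05MG, and 0.421 to 2.01 in U87MG (largest adjusted p = 0.0014, limma). IFITM2, which blocks entry of viruses, had 125 to 156 CPM against at most 34.6 CPM, and IRF7, a regulator of interferon genes, had 39 to 52.5 CPM against at most 14.1 CPM. IFITM1, IFITM2, and IFITM3 are close copies, and their sum was 964 to 1368 CPM in T98G and at most 736 CPM elsewhere. PSMB9, an immunoproteasome subunit that overlaps TAP1 and PSMB8, was 1.83 above DBTRG-05MG. In the WWOX libraries PSMB9 was not called against the mean of the other lines (1.08, adjusted p = 0.113, limma). HLA-B (-0.02), HLA-C (0.71), ISG15 (0.70), MX1 (0.61), and IFIT1 (-0.01), named after their values were seen, were not called. In the WWOX libraries 7 genes of this list were higher and 3 lower.

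GAAA, any 2 bases, and GAAA again are part of the interferon-stimulated response element. Of the 5 T98G-high genes of this list that matched RefSeq, 3 of 6 windows held them on either strand (BST2, IFITM3, and PSMB10). The share was 2.44% of windows of genes tested and 3.0% of all windows. It was not taken among the other members of this list, so it cannot set the T98G-high members apart from them. Here too a match is a description and not a binding site. The window of BST2, the leading gene of the list (chr19:17405631-17405880, minus strand), holds 2 overlapping matches in capitals, 130 and 124 bases before the start.

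BST2: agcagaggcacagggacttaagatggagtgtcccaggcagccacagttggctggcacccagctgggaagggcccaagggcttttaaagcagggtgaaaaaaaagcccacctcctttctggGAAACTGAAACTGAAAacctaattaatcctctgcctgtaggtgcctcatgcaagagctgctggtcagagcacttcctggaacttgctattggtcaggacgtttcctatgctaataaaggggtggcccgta

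NF-κB and cytokine genes did not share a direction. Of 29 such genes tested, 6 (20.7%) were higher and 10 (34.5%) lower in T98G (median -0.23). CXCL12, a chemokine, had 8.65, 43.9, and 6.54 CPM against at most 2.51 CPM, and VCAM1, an adhesion receptor, was 2.63 above U251MG. CXCL2, a neutrophil chemokine, was T98G-low at 0.234 to 0.562 CPM against 7.88 to 289 CPM, and IL11 was -2.41 relative to U251MG. CXCL8 (-2.36), CXCL1 (-2.47), and CSF3 (-3.57), named after their values were seen, were also lower than the mean.

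Of 29 receptor tyrosine kinases tested, 10 (34.5%) were higher and 9 (31%) lower in T98G (median 0.06). PDGFRB, a PDGF receptor, had 54.1, 66.7, and 60.6 CPM in T98G against at most 21.4 CPM, and LTK had 6.77 to 11.7 CPM against at most 2.42 CPM. MET, the receptor of hepatocyte growth factor, was T98G-low at 8.37, 23.9, and 6.23 CPM against 50.7 to 258 CPM, and KDR, a VEGF receptor, had at most 0.0778 CPM against at least 1.83 CPM. Of 11 IGF system genes tested, 6 (54.5%) were higher and 2 (18.2%) lower in T98G (median 0.68). IGF2, a growth factor, had 3.35 to 8.71 CPM against at most 0.243 CPM, and overlaps INS-IGF2 and IGF2-AS. Of the IGF binding proteins, IGFBP4 was 2.13 above DBTRG-05MG and IGFBP3 was 1.92 above U87MG, the latter no identity gene without T98G replicate 1, T98G replicate 3, or U87MG replicate 1.

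Of 21 genes of TGF-β and BMP signaling tested, 5 (23.8%) were higher and 7 (33.3%) lower in T98G (median -0.16). BMP7, a ligand, had 41.5, 37.8, and 44.6 CPM in T98G against at most 2.57 CPM, and BAMBI, a decoy receptor, was 2.68 above U251MG. ID1, a BMP target, was T98G-low at 16.1, 56.6, and 27.2 CPM against 70.6 to 862 CPM. Of 12 Wnt ligands and antagonists tested, 5 (41.7%) were higher and 5 (41.7%) lower in T98G (median 0.44). WNT5A, a ligand, had 144, 288, and 120.3 CPM in T98G and 50.9 to 89.5 CPM in U87MG, and without T98G replicate 2, U87MG replicate 1, or U87MG replicate 3 it was no identity gene.

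Of 26 genes of serine synthesis and ATF4 targets tested, 8 (30.8%) were higher and 2 (7.69%) lower in T98G (median 1.00), and no gene of this list was T98G-high by the identity rule. NUPR1, a stress gene chosen after its values were seen, had 2579, 1625, and 3711 CPM in T98G, but U87MG ranged from 109 to 1609.6 CPM. VLDLR, a lipoprotein receptor, was T98G-low (-2.24 relative to DBTRG-05MG). For these nutrient-responsive genes, as for the others, line and medium cannot be told apart. Of 7 metallothionein and zinc export genes tested, 4 (57.1%) were lower in T98G and 3 were not called (median -1.29). MT1E, a metal-binding protein, had 70.8 to 99.3 CPM against 165 to 1009 CPM, and MT3 had 0.188 to 0.778 CPM against 1.74 to 37.7 CPM. Metallothionein genes are close copies, so tags may be split among them.

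Of 14 contractile actin genes tested, 5 (35.7%) were higher and 4 (28.6%) lower in T98G (median 0.16). TAGLN, an actin-binding protein of smooth muscle, was T98G-high at 11.5, 15.4, and 6.38 CPM against at most 1.64 CPM, and overlaps PCSK7 on the opposite strand. Of 25 proliferation genes, 24 were not called (median -0.59). MCM6, a replication helicase subunit, was lower (-1.50, adjusted p = 0.0186, limma), at 4.85, 24.7, and 4.13 CPM in T98G. It was not called with edgeR, or without T98G replicate 1 (-1.15) or replicate 3 (-1.12). Without T98G replicate 2, which had the highest level, it kept its call. With 1 library left out the difference ran from -2.21 to -1.12. KRT18, a keratin of simple epithelium, was higher than the mean (3.08) at 209 to 362 CPM, below the 905 to 1259.7 CPM of DBTRG-05MG, and without U87MG the difference was 0.29 and not called. Few markers of other cell types were tested at all. Among 4 epithelial markers 2 were higher and 1 lower (CLDN3, -1.15, not called with edgeR or DESeq2), among 3 endothelial markers 1 was higher and 1 lower (KDR), and of 2 leukocyte markers CSF1R was lower (-1.56), with 1 tag in T98G. The differences of CLDN3 and CSF1R came from DBTRG-05MG and U87MG, at 5.34 to 8.25 and 6.25 to 14.7 CPM.

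**Figure D3:**
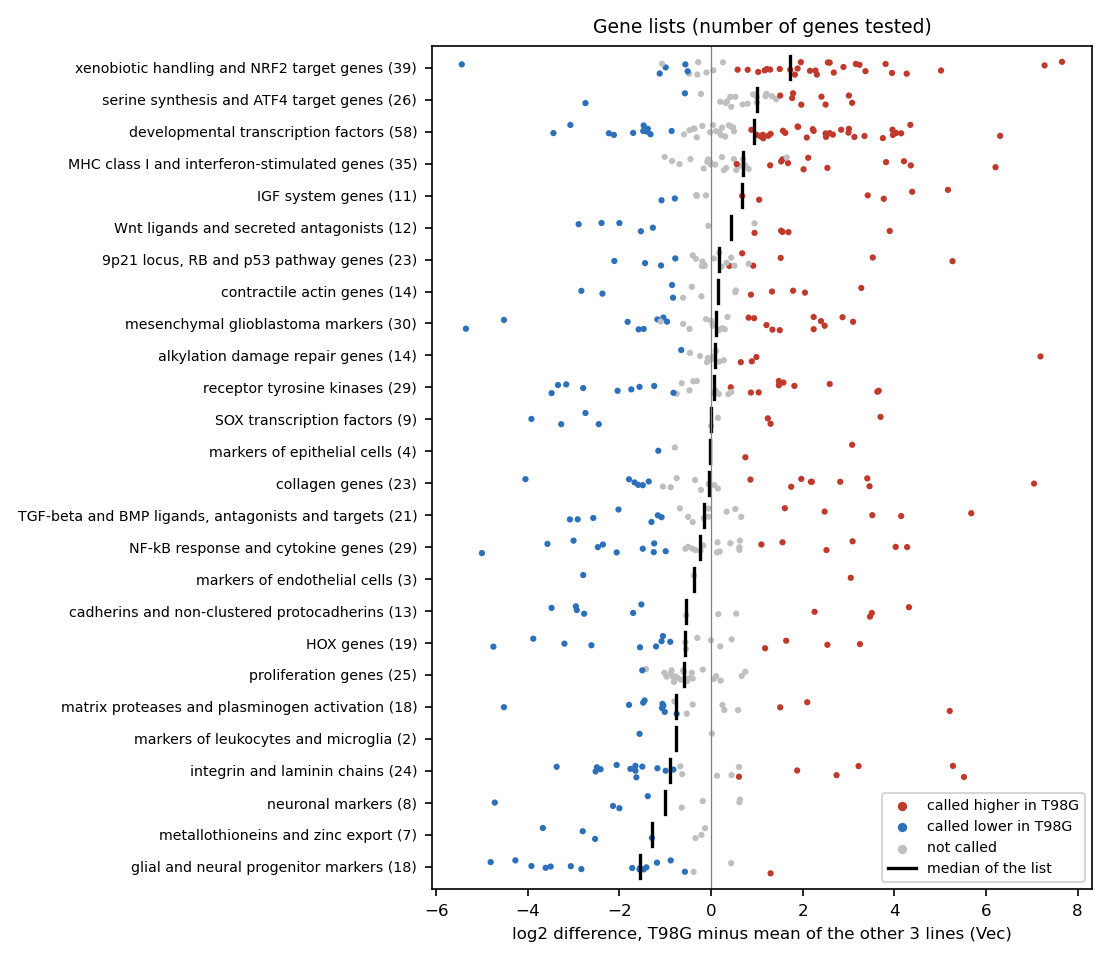
Difference of T98G from the mean of the other lines (log2, control libraries) for the genes tested on each of 26 lists, with 1 point per gene, called genes in color, and a bar for the median of each list. Medians run from 1.73 for xenobiotic and NRF2 genes to -1.56 for glial markers.

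The identity genes were spread unevenly over the chromosomes. T98G-high genes made up 8.93% of the genes tested on chromosome 22, 8.43% on 20, 8.05% on 16, and 8.04% on 11, against 4.28% overall. T98G-low genes made up 0.575% on chromosome 16 and 0.602% on 20, against 3.11% overall. The median difference over the genes tested was 0.44 on chromosome 16, 0.42 on 20, 0.40 on 22, and 0.29 on 11, and on these 4 it was above 0 against each line. It was -0.55 on chromosome 4 and -0.35 on chromosome 9. On chromosome 4 it was -0.44 against U87MG and -0.74 against DBTRG-05MG, but only -0.1 against U251MG. On chromosome 9 it was -0.32 against U87MG, -0.32 against U251MG, and -0.3 against DBTRG-05MG. In the WWOX libraries the medians were 0.43 on chromosome 16, 0.54 on 20, 0.63 on 22, 0.34 on 11, -0.49 on 4, and -0.21 on 9. Copy number was not measured.

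**Figure D4:**
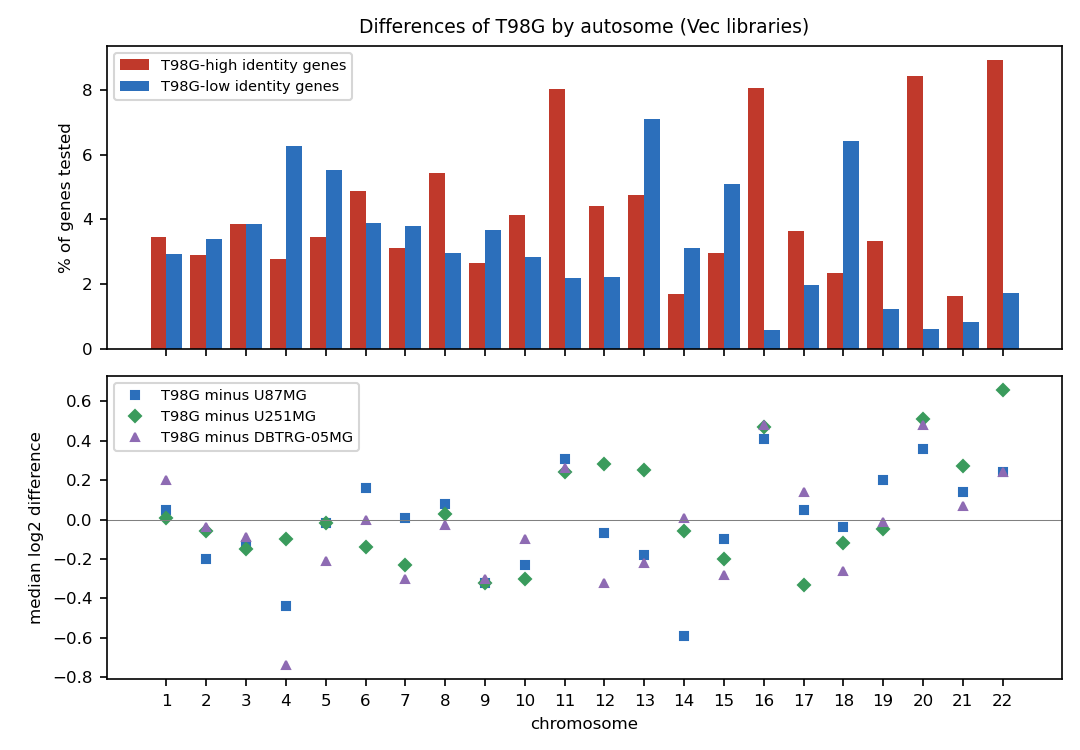
Share of genes tested on each autosome that were T98G-high or T98G-low identity genes (percent), and median log2 difference of T98G from the other lines by autosome, control libraries. Chromosomes 11, 16, 20, and 22 have the highest shares of T98G-high genes.

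The 12 WWOX libraries took no part in choosing the identity genes. Of 848 identity genes, 844 had the same sign there and 802 (94.6%) were called the same way (limma, adjusted p under 0.05), 46 were not called, and 0 were called the other way (0 or 1 under the alternatives). The WWOX libraries of U251MG stood apart from each other (chi-square per degree of freedom 221 to 353 between pairs, against at most 143 in the other groups), and with replicate 1, 2, or 3 of them left out 803, 817, and 793 identity genes were called the same way. Of all 4954 genes called in the control libraries, 3275 (66.1%) were called the same way. Applied to the WWOX libraries alone, the identity rule gave 487 T98G-high genes, of which 330 were shared (67.2% of the control list and 67.8% of the WWOX list), and 447 T98G-low genes, of which 269 were shared (75.4% and 60.2%). MGMT (6.84), CDKN2B (5.19), SLPI (9.22), and NQO1 (3.18) were higher than the mean of the other lines in these libraries, and THBS2 (-5.97), TNC (-6.45), and SLFN11 (-5.01) were lower.

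The 4 genes with another sign were TAGLN, ALDH7A1, MTND4LP30, and MTND1P23. TAGLN differed by 3.28 in the control libraries and by -1.02 in the WWOX libraries, where it was not called (adjusted p = 0.0766, limma). There it had 6.32, 4.38, and 3.96 CPM in T98G, 29.2 to 81 in U87MG, up to 77.3 in DBTRG-05MG, and at most 0.858 in U251MG. WWOX itself was at 43.3 ± 12.2 CPM in T98G control libraries, 37.9 ± 3.48 in U87MG, 33.5 ± 2.96 in U251MG, and 21.3 ± 0.927 in DBTRG-05MG (SD, n = 3). Its difference (0.59, adjusted p = 0.00734, limma) was 0.32 and not called without DBTRG-05MG. In the libraries labelled WWOX it had 45.1 to 61.8 CPM in T98G, 61 to 66 in U87MG, 17.4 to 56.7 in U251MG, and 28 to 32 in DBTRG-05MG, against 34.2 to 57.2, 33.9 to 40.1, 31.4 to 36.8, and 20.4 to 22.2 CPM in the control libraries, so the ranges overlapped in T98G and U251MG. Tags from the 5′ end of the transgene may not fall on the gene, so this does not check the labels.

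**Figure D5:**
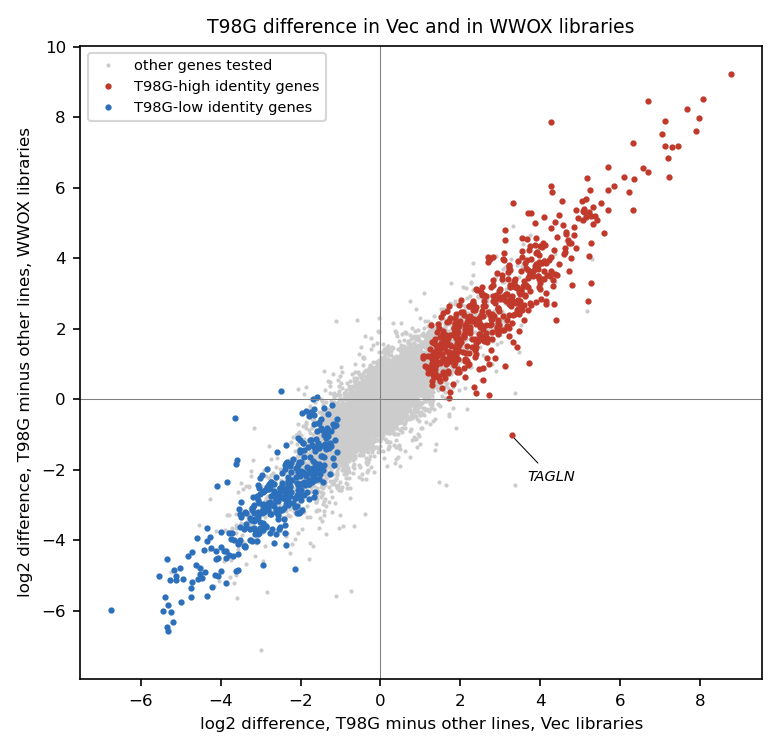
Difference of T98G from the mean of the other lines in the control libraries (horizontal axis) and in the WWOX libraries (vertical axis), both log2, with 1 point per gene tested and identity genes in color. Of the 848 identity genes 844 have the same sign on both axes, and TAGLN lies below 0 on the vertical axis.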

How the data were processed

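CAGE-Seq was measured in 24 libraries, 3 for each of 4 lines and 2 variants. According to the labels and the methods, the authors aligned reads with STAR to hg38, counted tags per gene with SAMtools in R (Rsamtools), and deposited the counts scaled to CPM, so that each library has the same total. The strand setting and the gene annotation are not given in the sources used here. The submitters' notes also name limma 3.42. Each deposited CPM column gave whole tags for 100% of values (tolerance 0.05 of a tag). No library differed from another of its line by less than sampling noise.

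TMM scaling factors (edgeR, without weighting) were computed for each library from the CPM of all genes. Autosomal genes with 5 CPM or more in at least 1 control library were then tested with limma 3.58.1 (R 4.3.3). The test used log2(scaled CPM + 0.5) in the 12 control libraries, with T98G contrasted with the 3-line mean and with each line. p-values were two-sided and Benjamini-Hochberg adjusted over 11474 genes, with a threshold of 0.05. A fold change on this scale understates the change of low genes, and folds were taken from tags. Counts with edgeR 4.0.16 and DESeq2 1.42.0 on recovered tags, other pseudocounts, filters, scalings, and left-out libraries or lines were alternatives. In simulated data for the comparison of T98G with the other lines (9533 genes, 200 changed), 95 of 100 genes changed 4-fold and 40 of 100 changed 2-fold were recovered, with 6 false among 141 calls. Apart from these changes all simulated lines shared a common mean per gene. Only genes with a mean of at least 5 CPM were simulated. The rates therefore do not describe data in which the other lines also differ from each other.

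Named genes were the 20 T98G-high and 15 T98G-low identity genes farthest from the nearest line (without pseudogenes, histone and small RNA genes, or clone names), up to 4 identity genes of each list (or, with none, its highest and lowest called members), and MGMT, CDKN2A, GFAP, EGFR, and WWOX. Other genes in the text, among them the further members given for a list, were chosen after their values were seen. Some genes that these rules name are not reported here. Members and lists were chosen with earlier results of these data known. Promoter windows came from RefSeq (GRCh38.p14), in which 9087 genes tested were matched.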

Additional observations from a re-analysis of the deposited data

Results flagged for a closer look

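The difference of T98G from the other lines was compared between the WWOX and control libraries, as an interaction in all 24 libraries (limma). It passed the threshold for 151 of 11474 genes (1.32%) and for 31 of 848 identity genes (3.66%), and 7 of the named genes were among them. Values are the difference in the WWOX libraries minus that in the control libraries, on the log2 scale.

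TAGLN had the largest change of the 7, -4.33 (adjusted p = 3.18e-05, limma). Its level in T98G was 11.5, 15.4, and 6.38 CPM in the control and 6.32, 4.38, and 3.96 CPM in the WWOX libraries, while in U87MG it was at most 0.701 CPM in the control and 29.2 to 81 CPM in the WWOX libraries. CES1, a carboxylesterase, changed by 3.55 (adjusted p = 4.95e-06, limma), from 5.62, 15.7, and 11.6 to 154, 76.9, and 128 CPM in T98G. IGF2 changed by -1.98 (adjusted p = 0.00017, limma), from 4.71, 8.71, and 3.35 to 0.93, 1.11, and 0.858 CPM in T98G. FOXF2 changed by -1.68 (adjusted p = 0.00358, limma), from 36.8, 29.8, and 41.4 to 14.6, 8.68, and 7.46 CPM.

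TMEM52B and OLR1, which overlap on opposite strands, changed by 1.74 (adjusted p = 0.00853, limma) and 1.72 (adjusted p = 0.0306, limma). For SOX11 the value was 1.55 (adjusted p = 0.0348, limma). In U251MG it went from 8.11, 14.2, and 16.8 CPM in the control to 0 tags in the 3 WWOX libraries. Single genes were not searched for outlying libraries, since each group holds 3. The part of separate transduction and selection in these values was not tested.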

How the results depend on the processing

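The counts of identity genes rested on the size limit, the filter, and the comparison lines. T98G-high genes numbered 301 with a mean of at least 5 CPM as the filter and 222 with at least 2 (log2) from the nearest line, and 826, 754, and 747 with U87MG, U251MG, or DBTRG-05MG left out. T98G-low genes numbered 127 with at least 2 from the nearest line, and 741 and 657 with U87MG or U251MG left out. Leaving out a line removes a contrast that the rule must pass. The difference of CLDN3 turned to 0.09 without DBTRG-05MG. With 1 library left out, genes called ranged from 3606 to 5681, T98G-high genes from 456 to 657, T98G-low genes from 336 to 463, and identity genes called the same way in the WWOX libraries from 752 to 817. Genes called numbered 4527 with edgeR and 5076 with DESeq2. Of 101 named identity genes, 101 kept their call and 92 kept the identity rule in the alternatives other than a line left out or the limit of 2.

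With the replicate block, 4698 genes were called, 492 T98G-high and 358 T98G-low, and EGFR lost its call. Deviations of same-numbered libraries of different lines had correlations from -0.322 to 0.391, with 5 of 18 pairs over 0.1. For differently numbered libraries they ran from -0.488 to 0.448, with 12 of 36 pairs over 0.1. With 3 libraries per line, this cannot show whether the numbers mark a shared batch.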
